A study of Sus scrofa with 8 samples.

Results

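A set of 10 tubulin genes was followed in the right ventricular free wall of pigs with a banded pulmonary artery: the beta isotypes TUBB, TUBB2A, TUBB2B, TUBB3, TUBB4B and TUBB6, and the alpha isotypes TUBA1A, TUBA1B, TUBA4A and TUBA8. They were found by name in the authors' deposited comparison, by the gene name or otherwise a one-to-one human gene name, and then by gene identifier in the deposited count table. Of the 10 genes, 7 were matched among 31908 gene models, and all 7 entered the test, as did 13697 models in all. TUBB2A and TUBA1A had no gene model of their own name, and TUBB3 was named only by the reference name table. Bulk RNA sequencing compared 4 banded with 4 control pigs, with 1 library per animal. The banded animals were castrated male Yorkshire Cross piglets. They were operated on at 4.5 ± 0.6 weeks and 6.4 ± 1.3 kg, when a tape around the main pulmonary artery was tightened until peak right ventricular systolic pressure reached about 30 to 40 mmHg. The controls were Yorkshire Cross pigs of like age and weight, were housed for 8 weeks and had no treatment. The labels name no sham operation, do not state the sex of the controls, and give no batch, so that surgery, sex or batch cannot be told apart from banding. How long the band was in place is not stated in the sources used here.

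Alpha- and beta-tubulin pair into the heterodimer from which microtubules are built. Mammals carry several genes of each kind, whose products, the isotypes, differ mainly in their acidic tails and in the tissues that make them. In heart muscle cells a dense microtubule network runs around the nucleus and between the myofibrils, carries cargo, and bears load when its alpha-tubulin tails are detyrosinated. Work on pressure-overloaded hearts of other mammals described a denser network and more of the microtubule-associated protein MAP4.

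Library totals ranged from 31033679 to 34183338 counts, so that a count of 0 allows at most 0.0878 to 0.0967 counts per 1000000 (CPM), taking 3 counts as the limit and covering counting error alone. Transcripts of the mitochondrial genome took 30.5% (banded 3) to 43.9% (control 4) of the counts. The library banded 3 stood apart: its mean Spearman correlation with its own group across genes was 0.958, against 0.965 to 0.969 for the other banded libraries and 0.977 to 0.983 for controls. It also held the highest level of the smooth muscle gene CNN1, 1348 CPM, against 84.2 ± 23.3 CPM in controls (SD, n = 4). A higher CNN1 level was shared by the banded group, whose lowest value was 156 CPM against a highest control value of 116 CPM. Values without banded 3 are given beside the tubulin results below. Of 12 cardiomyocyte markers 9 were matched, and they summed to 47494 ± 5779 CPM in banded and 35382 ± 4551 CPM in control ventricles (SD, n = 4 each). MYL2, the ventricular regulatory light chain, was the 1 marker called, with a log2 fold change of 0.91 and an edgeR quasi-likelihood adjusted p of 0.0113. The markers were split in direction, with 5 of 9 log2 fold changes above 0, and RYR2 (-0.74) and TNNI3 (-1.25) were among those below. The TNNI3 model held only 6.45 CPM in banded and 15.3 CPM in control ventricles, against 9748 and 8140 CPM for the troponin gene TNNT2. Whether that model captures the TNNI3 gene was not tested. In bulk tissue, fewer cells of a type and less RNA per cell cannot be told apart.

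Among the 7 tested tubulin genes 1 rose, TUBB2B, and 0 fell at an adjusted p under 0.05, where 6.97% of all tested genes were called, 3.47% higher and 3.5% lower. By DESeq2 3 of the 7 were called, where 10.3% of all genes were, and by limma-voom 2, where 9.86% were. DESeq2 without banded 3, a fit added after seeing the data, called 1 of the 7, where 10.1% of all genes were called. The median log2 fold change was 0.46 over the 7 genes, 6 of them above 0, and 0.02 over all tested genes, of which 51.6% were above 0. Without banded 3 the median was 0.29 with 5 of the 7 above 0, against a median of 0.0062 over all genes then tested. TUBB2B and TUBB4B had banded and control values that did not overlap, with banded higher, as did 7.66% of all tested genes. The remaining beta isotypes were TUBB, with 3 of 4 banded animals above every control, and TUBB6, whose groups overlapped. None of the 3 alpha gene models passed the test in the fit of all 8 libraries or under any alternative run. In counts simulated for this comparison over 13494 genes, 6.06% of changes of 1.5-fold, 60.9% of changes of 2-fold and 89.2% of changes of 4-fold were called. Only 66, 64 and 65 genes carried these changes, while 954 genes were called in the data. Adjusted p-values depend on how many genes change, so these rates need not hold for the data.

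**Figure D1:**
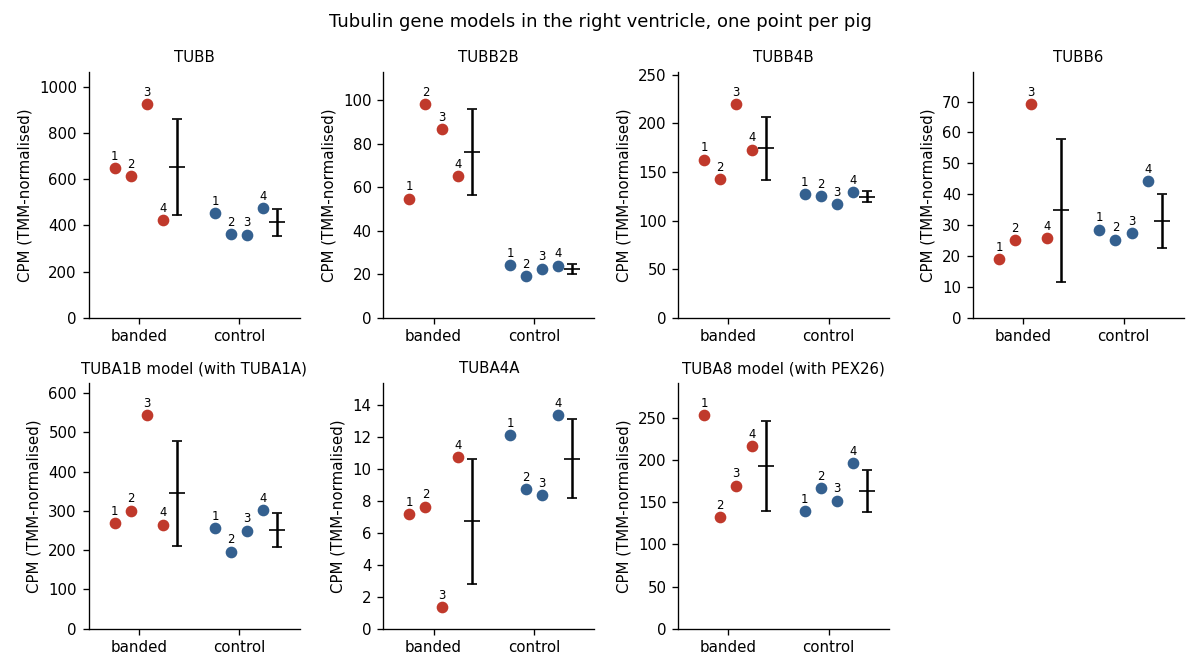
CPM (vertical axis, TMM-normalised, linear from 0) of the 7 matched tubulin gene models in each library, with banded left of control; points are single animals and the horizontal bars are group means. TUBB2B separates the groups widely (54.7 to 98.1 against 19.0 to 24.2 CPM), while in TUBB6 and TUBA1B 1 banded library, banded 3, lies far above the others.

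TUBB2B encodes a beta-tubulin best known from developing neurons, where human variants disturb cortical layering. Its gene model, ENSSSCG00000033655, lies on chromosome 7 at 1910585 to 1956119 (minus strand, Sscrofa11.1) and has 5389 exon bases. TUBB2B had 54.7, 98.1, 86.7 and 65.2 CPM in banded 1 to 4, against 24.2, 19.0, 22.5 and 23.9 CPM in controls 1 to 4. All 4 banded libraries lay above every control, banded 1 being the lowest and banded 2 the highest, while the controls lay close together. Its mean was 76.2 ± 19.8 CPM in banded and 22.4 ± 2.38 CPM in control ventricles (SD, n = 4 each). That is a 3.40-fold higher level, or a log2 fold change of 1.77 ± 0.18 (SE) with an edgeR adjusted p of 0.00047. Leaving out banded 3 gave 1.70 with an adjusted p of 0.000563, in a fit that called 6.72% of all genes. Over all 18 alternatives TUBB2B stayed called, with log2 fold changes of 1.62 to 1.90.

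Only 31.3% of the exon bases of this model lie within the RefSeq gene TUBB2B. A further 35.4% lie within LOC100624785 and 32.5% within LOC110261696, a pair of neighbouring protein-coding RefSeq genes to which the reference gives no other name. Reads of these 3 RefSeq genes cannot be separated, so the rise is that of the combined model. No count for TUBB2A, which in other mammals is a near-identical neighbour of TUBB2B, was analysed here on its own.

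Markers of nerve and Schwann cells are given beside TUBB2B because of its neuronal expression. Of 12 such markers 11 were matched, 9 were tested and 0 were called. Their summed level was 151 ± 19.5 CPM in banded and 122 ± 13.1 CPM in control ventricles, with 3 of 4 banded animals above every control. NCAM1, a cell adhesion molecule also made by stressed muscle, supplied most of it, at 131 CPM in banded and 100.1 CPM in control ventricles (adjusted p = 0.159 in edgeR). The tested neuronal genes STMN2 (log2 fold change 1.84, adjusted p = 0.0917), NEFL (2.14, 0.152) and UCHL1 (0.75, 0.333) had values above 0, and the Schwann cell gene SOX10 (-0.44, 0.364) had one below 0. TH, the enzyme of sympathetic nerves, was at 0 in all 4 controls and had a median of 0 in banded animals. Its highest banded value was 0.174 CPM and its banded mean 0.0434 CPM. TUBB3, the beta isotype most tied to neurons, had 9, 5, 22 and 4 counts in banded 1 to 4, against 11, 1, 2 and 2 counts in controls 1 to 4, in the model ENSSSCG00000002639 on chromosome 6. These counts were below the filter of the edgeR fit. DESeq2, which has another filter, gave a log2 fold change of 1.40 with an adjusted p of 0.445 for TUBB3, and 0.67 with 0.825 without banded 3. The part of nerve cells in the TUBB2B result was not tested.

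TUBB, the broadly expressed class I beta-tubulin, was the most abundant of the tubulin models. TUBB (ENSSSCG00000001379, chromosome 7, 23245743 to 23294218, plus strand, 5467 exon bases) had 650, 615, 925 and 424 CPM in banded 1 to 4, against 454, 364, 361 and 475 CPM in controls 1 to 4. Banded 1 to 3 lay above every control, and banded 4 lay inside the control range. TUBB averaged 653 ± 206 CPM in banded and 413 ± 59.7 CPM in control ventricles (SD, n = 4 each), a log2 fold change of 0.66 ± 0.22 (SE) that missed the threshold (edgeR adjusted p = 0.095). The models of TUBB and TUBB6 overlap MDC1 and AFG3L2, whose own models lie on the opposite strand, and the counting used strand. Of the exon bases of the TUBB model 44.9% lie within the RefSeq gene TUBB and 36.5% within MDC1. For the TUBB6 model 34.1% lie within TUBB6 and 82.3% within AFG3L2. The call of TUBB turned on the tool and on single libraries. DESeq2 (adjusted p = 0.0307) and limma-voom (0.0412) called TUBB, as did edgeR without banded 4 (log2 fold change 0.82, adjusted p = 0.0273). Leaving out banded 3 gave 0.45 with an edgeR adjusted p of 0.178 and a DESeq2 adjusted p of 0.103.

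TUBB4B, a broadly expressed beta isotype that is also a main beta-tubulin of cilia, gave a smaller difference with less spread. Its model (ENSSSCG00000037046, unplaced scaffold AEMK02000682.1, 665246 to 719430, minus strand, 2214 exon bases) had 163, 142, 220 and 173 CPM in banded 1 to 4, against 127, 125, 117 and 129 CPM in controls 1 to 4. Every banded library lay above every control, and the controls spanned a narrow range. TUBB4B averaged 174 ± 32.6 CPM in banded and 124 ± 5.44 CPM in control ventricles (SD, n = 4 each), a log2 fold change of 0.49 ± 0.15 (SE) with an edgeR adjusted p of 0.0683. DESeq2 called it (adjusted p = 0.0295), as did edgeR without banded 2 (0.0417), while limma-voom did not (0.0525). Leaving out banded 3 gave 0.36 with an edgeR adjusted p of 0.117 and a DESeq2 adjusted p of 0.0636.

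TUBB6, the class V beta-tubulin, has been linked in mouse muscle to regeneration and dystrophy. TUBB6 (ENSSSCG00000038992, chromosome 6, 97229868 to 97240665, minus strand, 5722 exon bases) had 19.0, 25.1, 69.1 and 25.8 CPM in banded 1 to 4, against 28.5, 25.3, 27.3 and 44.2 CPM in controls 1 to 4. Banded 3 lay above all controls, banded 1 and 2 lay below them, and banded 4 lay among them. TUBB6 averaged 34.7 ± 23.1 CPM in banded and 31.3 ± 8.69 CPM in control ventricles (SD, n = 4 each), a log2 fold change of 0.15 ± 0.40 (SE) with an edgeR adjusted p of 0.864. Its sign was not stable, as it was -0.42 on the log2 scale without banded 3 (adjusted p = 0.235) and -0.17 with limma-voom.

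The alpha isotypes were represented by 3 models. TUBA1B is one of the alpha-tubulins of dividing and most other cells, and its model (ENSSSCG00000000190, chromosome 5, 15149099 to 15269267, minus strand, 5160 exon bases) also takes in TUBA1A, the main alpha-tubulin of developing neurons. Of its exon bases 31.5% lie within the RefSeq gene TUBA1B, 33.0% within TUBA1A and 48.4% within LOC100127131, whose span contains that of TUBA1A, so the values of TUBA1B and TUBA1A cannot be separated. The TUBA1B model had 269, 300.0, 544 and 264 CPM in banded 1 to 4, against 255, 196, 249 and 302 CPM in controls 1 to 4. Banded 3 stood far above the rest, and the other 3 banded libraries lay within the control range. The log2 fold change was 0.46 ± 0.24 (SE, edgeR adjusted p = 0.271), and 0.15 without banded 3 (adjusted p = 0.635).

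TUBA4A, an alpha-tubulin encoded without the terminal tyrosine that most other alpha isotypes carry, was the least abundant of the 7 models. TUBA4A (ENSSSCG00000016216, chromosome 15, 121283404 to 121294654, minus strand, 3281 exon bases) had 7.17, 7.65, 1.36 and 10.7 CPM in banded 1 to 4, against 12.1, 8.73, 8.34 and 13.4 CPM in controls 1 to 4. Banded 1 to 3 lay below every control and banded 4 lay among them. The value of banded 3 rests on 44 counts, against 227 to 309 in the other banded libraries and 297 to 413 in controls. The log2 fold change was -0.66 ± 0.49 (SE, edgeR adjusted p = 0.458), and -0.32 without banded 3 (adjusted p = 0.425).

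TUBA8, an alpha-tubulin made in heart, skeletal muscle and testis of other mammals, had 254, 132, 170.0 and 217 CPM in banded 1 to 4, against 139, 167, 152 and 197 CPM in controls 1 to 4. Banded 1 and 4 lay above every control, banded 2 lay below them, and banded 3 lay among them. The log2 fold change of TUBA8 was 0.24 ± 0.20 (SE, edgeR adjusted p = 0.511), and 0.29 without banded 3 (adjusted p = 0.450). The TUBA8 model (ENSSSCG00000027190, chromosome 5, 70133022 to 70180433, plus strand, 10461 exon bases) has 13.6% of its exon bases within the RefSeq gene TUBA8 and 38.9% within PEX26, a gene of peroxisome assembly for which no model of that name was found, so that reads of both cannot be separated. The reference table gives no strand for RefSeq genes.

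**Figure D2:**
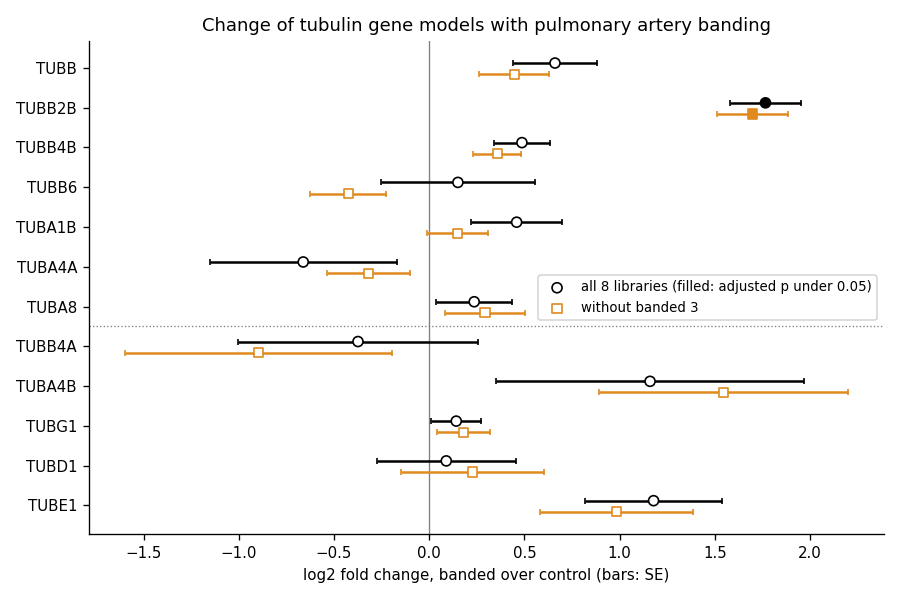
Log2 fold change, banded over control, of each tested tubulin model (horizontal axis, edgeR, bars are 1 SE), for all 8 libraries and without banded 3. TUBB2B stayed at 1.77 and 1.70, while TUBB6 stood at 0.15 with all libraries and at -0.42 without banded 3.

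Per kilobase of exon, the order of the group means was TUBB, TUBB4B, the TUBA1B model and TUBA8 in both groups. In banded ventricles TUBB had 119.5 ± 37.8, TUBB4B 78.8, TUBA1B 66.7, TUBA8 18.5, TUBB2B 14.1, TUBB6 6.07 and TUBA4A 2.05 CPM per kilobase. In control ventricles TUBB had 75.6 ± 10.9, TUBB4B 56.2, TUBA1B 48.5, TUBA8 15.7, TUBB6 5.47, TUBB2B 4.16 and TUBA4A 3.24 CPM per kilobase. TUBB2B thus stood above TUBB6 in banded ventricles and below it in controls. In all 4 banded libraries its value per kilobase, 10.1 to 18.2, exceeded that of TUBB6 in the same library, and in all 4 controls, at 3.53 to 4.49, it was below. Ranges of neighbours in this order overlapped between TUBB4B and TUBA1B and between TUBB2B and TUBB6 in both groups. They also overlapped between TUBB and TUBB4B and between TUBA8 and TUBB2B in banded ventricles, and between TUBB2B and TUBA4A in controls. Per-kilobase levels depend on the length of the gene model, which for the combined models exceeds that of a single tubulin gene. In the TUBB, TUBB6 and TUBA4A models, 44.9%, 34.1% and 47.1% of the exon bases lie within the RefSeq gene of that name. For the TUBB4B model, on an unplaced scaffold, no such share could be given. Not divided by length, TUBB4B stood below TUBA1B and TUBA8 in both groups. The means were 174, 344 and 193 CPM in banded and 124, 250 and 164 CPM in control ventricles (TUBB4B, TUBA1B, TUBA8).

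TUBB2B made up a larger share of the beta pool in every banded than in every control library. As a share of the summed CPM per kilobase of the 4 beta models, TUBB2B held 6.63% ± 1.89 in banded ventricles (4.93% to 9.13%) and 2.94% ± 0.25 in control ventricles (2.70% to 3.27%; SD, n = 4 each), and the ranges did not overlap. TUBB held 54.1% ± 6.05 and 53.3% ± 2.35, TUBB4B 36.7% ± 5.94 and 39.9% ± 2.75, and TUBB6 2.63% ± 1.05 and 3.84% ± 0.74 (banded, then control). Those 3 shares overlapped between the groups. For TUBB6 the overlap came from banded 3, at 4.07%, as the other banded shares were 1.62% to 2.62% (mean 2.14%) and every control share was at least 3.32%. In the alpha pool TUBA1B held 75.1% ± 9.51 and 71.8% ± 3.36, TUBA8 22.3% ± 8.30 and 23.4% ± 3.48, and TUBA4A 2.67% ± 1.69 and 4.79% ± 0.70 (banded, then control), all with overlapping ranges. Without banded 3 the banded means were 71.3% for TUBA1B, 25.2% for TUBA8 and 3.44% for TUBA4A, which put TUBA1B below and TUBA8 above its control mean, and 53.1%, 7.03% and 37.8% for TUBB, TUBB2B and TUBB4B, which put TUBB slightly below. These shares are descriptions and were not tested.

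The ratio of TUBB2B to TUBB per kilobase was 0.0854, 0.162, 0.0951 and 0.156 in banded 1 to 4, against 0.0540, 0.0530, 0.0633 and 0.0511 in controls 1 to 4. All 4 banded ratios exceeded every control ratio. On the log2 scale the ratio averaged -3.06 ± 0.48 in banded and -4.18 ± 0.14 in control ventricles (SD, n = 4 each), a difference of 1.12. The exact two-sided permutation p was 0.0286, the smallest that 70 assignments of 4 against 4 can give, and 0.0571 after Benjamini-Hochberg adjustment over the 2 ratios run. This ratio was chosen with TUBB2B known to be called in the same libraries, so its p is not independent support for the TUBB2B rise. The log2 ratio of TUBA8 to TUBA4A averaged 3.47 ± 1.30 in banded and 2.29 ± 0.34 in control ventricles, a difference of 1.18 (exact permutation p = 0.114, adjusted 0.114). Without banded 3, which held the low TUBA4A value, that difference was 0.57.

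The 7 models summed to 1483 ± 368 CPM in banded ventricles (1180 to 2015) and 1017 ± 126 CPM in control ventricles (904 to 1184; SD, n = 4 each). Banded 1 to 3 lay above every control and banded 4 lay inside their range. The beta sum was 219 ± 54.0 and the alpha sum 87.2 ± 23.3 CPM per kilobase in banded ventricles, against a beta sum of 141 ± 14.5 and an alpha sum of 67.5 ± 10.3 in control ventricles. Beta over alpha was 2.52 ± 0.19 in banded and 2.11 ± 0.20 in control ventricles, with ranges that overlapped by a small margin, from 2.29 in banded 4 to 2.31 in control 2. Without banded 3 the banded means were 1306 CPM for the 7 models, 193 and 75.7 CPM per kilobase for the beta and alpha sums, and 2.55 for beta over alpha.

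**Figure D3:**
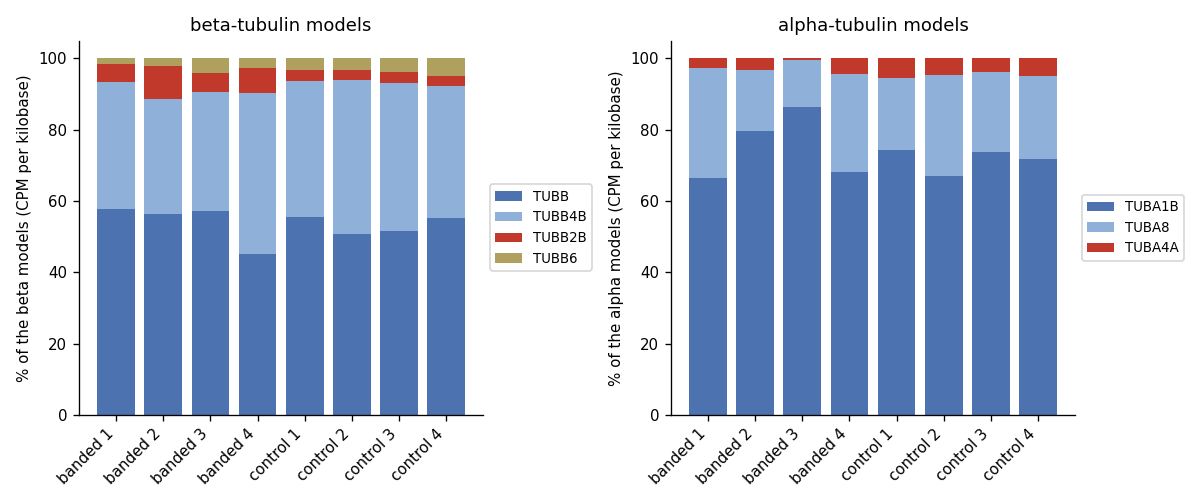
Share of each isotype in the summed CPM per kilobase of the beta models and of the alpha models (vertical axis, percent), for each library, with banded left of control. The TUBB2B share is 4.93% to 9.13% in banded and 2.70% to 3.27% in control libraries, and banded 4 has the lowest TUBB share, 45.02%.

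Markers of dividing cells are given beside these levels because mitosis uses tubulin. All 8 such markers had a log2 fold change above 0, and 1 was called, CDK1 (log2 fold change 1.21, edgeR adjusted p = 0.0478). CDK1 lost its call in 7 of the 8 fits that leave out 1 library (adjusted p 0.0532 to 0.139). Their sum was 99.8 ± 42.6 CPM in banded (60.9 to 161) and 50.6 ± 13.6 CPM in control ventricles (39.3 to 67.2), highest in banded 3. Macrophage markers summed to 782 ± 215 CPM in banded and 518 ± 104 CPM in control ventricles, with 0 of 8 called. Smooth muscle and pericyte markers summed to 1333 ± 670 CPM in banded and 1035 ± 148 CPM in control ventricles, with 0 of 8 called and a median log2 fold change of -0.45. Their higher banded sum came from banded 3, at 2314 CPM, as the other banded libraries averaged 1006 CPM. Without banded 3, 6 of the 8 log2 fold changes were below 0, while CNN1 was called higher (1.62, edgeR adjusted p = 0.0130). Fibroblast markers, with FBLN1 called higher (0.69, adjusted p = 0.0248) and PDGFRA called lower (-0.49, 0.048), summed to 9900 ± 2288 and 10266 ± 1381 CPM. Endothelial markers, with EMCN called lower (-0.57, 0.0207), summed to 912 ± 15.8 and 949 ± 65.0 CPM. Leaving out 1 library ended the call of PDGFRA in 6 of 8 fits (adjusted p 0.0648 to 0.151), that of FBLN1 in 4 (0.0527 to 0.0866) and that of EMCN in 4 (0.0507 to 0.0747). Of 8 skeletal muscle markers 3 were tested and ACTA1, an actin that heart muscle also makes, was called higher (1.29, 0.00688). Their summed level was 20680 ± 5160 CPM in banded and 13336 ± 1868 CPM in control ventricles. Nearly all of it was ACTA1 (14933 CPM in banded, 6125 CPM in control) and CKM (5746 and 7210 CPM, not called). TNNI2, MYLPF and TNNT3 averaged 0.625, 0.132 and 0.0451 CPM in banded, against 0.522, 0.0435 and 0.0140 CPM in control ventricles. The part of these cell types in the tubulin levels was not tested.

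Among 7 further tubulin genes that were matched of 14 listed, 5 were tested and 0 were called in edgeR. TUBG1, the gamma-tubulin of the nucleating ring, was the most abundant of them, at 97.0 ± 11.3 CPM in banded and 87.9 ± 9.37 CPM in control ventricles (adjusted p = 0.560). For the TUBG1 model no share of exon bases within a RefSeq gene of that name could be given. TUBG2 had no gene model of its own name. Whether the level is that of TUBG1 alone was not tested. TUBE1, the epsilon-tubulin of centrioles, is named after its values were seen. It averaged 1.68 ± 0.44 CPM in banded and 0.740 ± 0.13 CPM in control ventricles (SD, n = 4 each). Its groups did not overlap, with banded higher, as in 7.66% of all tested genes. The adjusted p was 0.0744 in edgeR and 0.0254 in DESeq2, and without banded 3 these were 0.172 and 0.140. Of the exon bases of the TUBE1 model, 46.2% also lie within the RefSeq gene WISP3. Whether reads of WISP3 enter it was not tested.

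Around the tubulins, 110 tested genes in 7 lists of microtubule genes, the further tubulins included, held 6 genes that rose and 6 that fell (10.9% called, against 6.97% of all tested genes). Their median log2 fold change was 0.07. Without banded 3 the medians of 3 lists changed sign, to 0.026 for microtubule-associated proteins, -0.070 for modifying enzymes and -0.052 for motors. The count of 12 was 3 without control 1 and 5 without control 2 or without control 3, and was 20 with DESeq2. For comparison, the calls over all genes were 954 with all libraries and 399 to 415 without 1 of these 3 controls.

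Of 16 tested microtubule-associated proteins 3 rose and 2 fell (median log2 fold change -0.04). MAP4, the main such protein of muscle, was the most abundant, at 535 ± 96.1 CPM in banded and 338 ± 37.5 CPM in control ventricles (log2 fold change 0.66 ± 0.16, edgeR adjusted p = 0.0339). MAPT, which encodes tau, was at 23.5 ± 4.13 and 9.65 ± 3.77 CPM (1.28 ± 0.30, 0.0294), and MAP7, which recruits kinesin-1, at 3.38 ± 0.76 and 1.31 ± 0.36 CPM (1.36 ± 0.31, 0.0248; banded, then control). MTUS2, a microtubule tip protein, was lower, at 25.0 ± 5.89 CPM in banded and 44.6 ± 6.82 CPM in control ventricles (-0.84 ± 0.18, 0.0182). EML1, a lattice-binding protein outside the naming rule and named after its values were seen, was also lower (-0.48 ± 0.12, 0.0373). In none of these 5 genes, which were named because they were called, did banded and control values overlap, as in 15.9% of all tested genes. These calls were narrow. Leaving out 1 library ended that of MAP4 for each library but banded 3 and banded 4 (adjusted p 0.0654 to 0.0866). The call of MAPT ended without banded 2, banded 3 or control 1, 2 or 3 (0.0521 to 0.0767), and that of MAP7 without banded 1, banded 2 or control 1, 2 or 3 (0.0543 to 0.0710). The call of MTUS2 ended without control 1 or 2 (0.0617 to 0.0641), and that of EML1 without any library but banded 1 (0.0572 to 0.109). Scaling by library size alone, which moves the median of all genes by -0.10 on the log2 scale, ended the calls of MAP4 (0.110) and MAPT (0.0831).

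Of 18 tested genes for plus-end binding and nucleation 1 rose and 3 fell (median -0.02). CLASP2, which holds plus ends at the cell cortex and at the Golgi, was at 22.3 ± 1.69 CPM in banded and 33.7 ± 0.27 CPM in control ventricles (log2 fold change -0.60 ± 0.11, edgeR adjusted p = 0.0106). Its paralog CLASP1 was at 42.6 ± 2.41 and 64.7 ± 6.96 CPM (-0.60 ± 0.12, 0.0134), and AKAP9, a scaffold that anchors the gamma-tubulin ring at the Golgi and centrosome, at 36.3 ± 6.12 and 60.04 ± 3.01 CPM (-0.73 ± 0.14, 0.0103; banded, then control). CLIP1, a plus-end tracking protein named after its values were seen, was higher, at 136 ± 16.3 CPM in banded and 86.3 ± 10.8 CPM in control ventricles (0.65 ± 0.14, 0.0187). AKAP9 and CLASP2 kept their calls in all 18 alternatives. CLASP1 lost its call without control 1 (0.0520), and CLIP1 without control 1 (0.0656), without control 3 (0.0696) and with library size alone (0.0721). The most abundant gene of the list per kilobase, TUBGCP2, a subunit of the gamma-tubulin complex, was not called (0.09, 0.685).

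Of 18 tested folding cofactors and chaperonin genes, which fold tubulin and pair it into dimers, 1 rose and 0 fell, with a median log2 fold change of 0.12 and 16 of 18 above 0. That direction leaned on banded 3, without which the median was 0.024 and 10 of 18 were above 0. The gene called was PFDN1, a prefoldin subunit, at 82.8 ± 11.9 CPM in banded and 54.9 ± 8.49 CPM in control ventricles (0.59 ± 0.15, edgeR adjusted p = 0.0371). Its model overlaps the span of CYSTM1, whose own model lies on the opposite strand, and the counting used strand. The call of PFDN1 ended without banded 1, banded 4 or control 1, 2 or 3 (0.0681 to 0.125). The most abundant gene of the list, the chaperonin subunit CCT7, had a log2 fold change of 0.08 (0.766).

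Of 12 tested genes that destabilise or sever microtubules 0 were called in edgeR, although 12 of 12 had a log2 fold change above 0 (median 0.39; without banded 3, 10 of 12 and 0.50), and under the 18 alternatives 0 to 3 were called. Their summed level was 157 ± 32.1 CPM in banded and 111 ± 13.7 CPM in control ventricles, with all 4 banded animals above every control. STMN1, which encodes the tubulin-sequestering protein stathmin, was the most abundant of them per kilobase, at 68.4 CPM in banded and 35.8 CPM in control ventricles (0.93, adjusted p = 0.0724). STMN1 and several others of this list are also expressed in dividing cells, whose markers stood as given above.

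Of 16 tested tubulin-modifying enzymes 0 rose and 1 fell (median 0.03). TTLL3, a glycylase, was at 14.9 ± 4.01 CPM in banded and 23.7 ± 2.31 CPM in control ventricles with overlap (-0.67 ± 0.18, edgeR adjusted p = 0.0495), and its call ended without any library but banded 1 (0.0556 to 0.130). VASH1, an enzyme that removes the terminal tyrosine of alpha-tubulin, was named after its values were seen and was not called (-0.12, 0.843). The deacetylase SIRT2, the most abundant enzyme of the list, had a log2 fold change of 0.26 (0.478). Of 25 tested kinesin and dynein motor genes 1 rose and 0 fell (median 0.01). DYNC1I1, a dynein intermediate chain, was at 29.6 ± 2.86 CPM in banded and 18.5 ± 1.77 CPM in control ventricles (0.67 ± 0.13, edgeR adjusted p = 0.0116). It kept its call without any 1 library and lost it with library size alone (0.0539). The kinesin KIF1C, the most abundant motor gene per kilobase, was not called (0.33, 0.297).

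**Figure D4:**
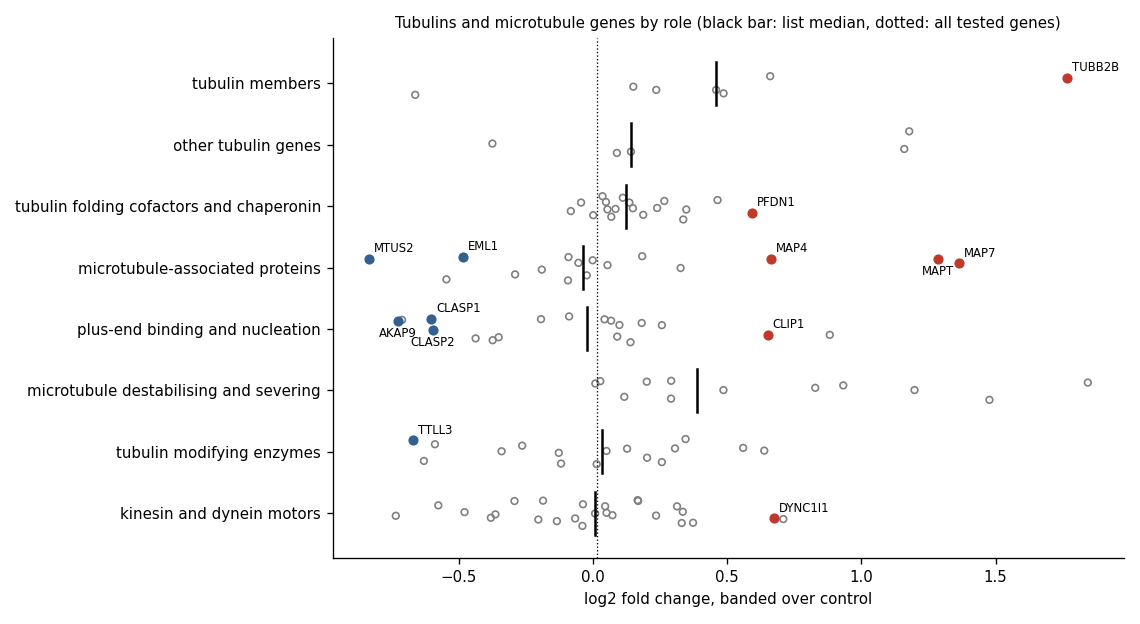
Log2 fold change, banded over control, of every tested gene in the tubulin and microtubule lists (horizontal axis, edgeR); filled points passed an adjusted p of 0.05, red higher and blue lower in banded, black bars are list medians and the dotted line is the median of all tested genes. TUBB2B, at 1.77, is the filled point farthest from the dotted line.

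The authors' deposited table gives its log2 fold changes as control over banded, and they are printed here with the sign turned. In the authors' deposited table TUBB2B stood at 1.70 (adjusted p = 7.79e-14) and TUBB4B at 0.36 (0.0475), and these were the 2 of 7 tubulin genes under 0.05. Of all genes with an adjusted p in it, 10.6% were under 0.05, 5.01% higher and 5.55% lower in banded. DESeq2 run here without banded 3, as an alternative added after seeing the data, called 10.1% of all genes. That run called TUBB2B but not TUBB4B (adjusted p = 0.0636). The same authors' deposited table gave TUBB 0.45 (0.1001), TUBB6 -0.43 (0.228), TUBA1B 0.15 (0.658), TUBA4A -0.32 (0.476) and TUBA8 0.29 (0.451). The mean normalised signal in the authors' deposited table lay within 1% of the DESeq2 mean of 7 libraries without banded 3 for all 12959 genes with a mean of at least 10. With all 8 libraries that held for 18.2% of them. TUBB6 stood below 0 in the authors' deposited table and above 0 in the edgeR fit of all 8 libraries.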

How the data were processed

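Libraries of total RNA, 1 for each of 4 banded and 4 control pigs, were made from frozen right ventricle and sequenced in bulk. The authors' counts of read pairs per gene model were made, per the file headers, with featureCounts 1.6.2 (mapping quality at least 10, strand setting 2, Ensembl release 106, Sscrofa11.1), and the deposited counts are not normalised. HISAT2, Trimmomatic, DESeq2 and Subread also appear in the submitters' processing notes, without versions. The authors' deposited comparison holds a mean normalised signal, a log2 fold change with its error, a Wald score, a p-value and, for orthologues, a percent identity.

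The members and gene lists were chosen with earlier results of these data known. Symbols came from the deposited gene name (14955 models), a one-to-one human name (661) or the reference name table (600), and 15692 models had none. RefSeq gene spans of the same assembly showed which models hold several genes. Models were filtered by filterByExpr of edgeR 4.0.16 (minimum count 10, minimum total 15), scaled by TMM and compared with the robust quasi-likelihood test in R 4.3.3, two-sided, Benjamini-Hochberg over 13697 models, threshold 0.05. CPM is TMM-normalised counts per 1000000, and CPM per kilobase divides it by the exon length of the model. SEs of log2 fold changes were obtained from F. All members were named, with up to 3 called genes of smallest adjusted p and the most abundant one from each list, and the called and most abundant genes of marker lists, of which the text prints a part. The planned ratios with TUBB2A or TUBA1A could not be formed. Alternatives were DESeq2 1.42.0, limma-voom (limma 3.58.1), other scalings and filters, no robust estimation, omission of mitochondrial-genome genes, and leave-one-out fits. The test was checked on simulated counts. A marker gene is not reported here. Each library is 1 animal, and counting intervals and floors cover counting error only.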

Additional observations from a re-analysis of the deposited data

Results flagged for a closer look

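Of 32 sets of 4 banded or 4 control values examined, 3 held a library whose gap to its nearest neighbour exceeded Dixon's critical share of the range. Chance gives about 1 in 20. TUBB6 was at 69.1 CPM in banded 3, against 19.0 to 25.8 CPM in the other banded libraries. The TUBA1B model was at 544 CPM in banded 3, against 264 to 300.0 CPM in the other banded libraries. The TUBB share of the beta models was 45.02% in banded 4, against 56.4% to 57.7% in the other banded libraries.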

How the results depend on the processing

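TUBB2B kept its direction and call in all 18 alternatives. The number of tubulin genes called was 1, and it was 3 with DESeq2, 2 with limma-voom and 1 to 2 when 1 library was left out. Over all genes 954 were called, 1629 with DESeq2, 1534 with DESeq2 without banded 3 (an alternative chosen after seeing the data) and 399 to 962 when 1 library was left out. Scaled by library size alone, 303 were higher and 508 lower, so 37.4% of the calls were higher in place of 49.8%. The microtubule lists held 12 calls, 20 with DESeq2 and 3 to 12 when 1 library was left out. With 1 library left out, TUBB6 ranged over -0.42 to 0.36 and TUBD1 over -0.15 to 0.35. TUBB6 turned negative with limma-voom (-0.17), without banded 3 (-0.42) and with DESeq2 without banded 3 (-0.42). TUBD1, at 0.09, turned negative with library size alone (-0.035), without banded 1 (-0.15) and without control 4 (-0.08). The cause was not tested. Leaving out 1 library gave log2 differences of 0.97 to 1.28 for TUBB2B over TUBB, and 0.57 to 1.52 for TUBA8 over TUBA4A. Both passed only without banded 2 (adjusted exact permutation p = 0.0286 each, the smallest possible). The adjustment ran over the 2 ratios, so the adjusted p of each also depended on the p of the other. With all libraries TUBB2B over TUBB already had the smallest possible unadjusted exact permutation p, 0.0286. Not divided by length, the banded and control shares were 69.0% and 69.7% for TUBB, 19.1% and 21.2% for TUBB4B, 62.2% and 58.8% for TUBA1B, and 36.4% and 38.7% for TUBA8, and the control shares were 3.80% for TUBB2B, 5.25% for TUBB6 and 2.49% for TUBA4A. Over 30 single genes, 447 of 537 alternatives kept the direction and side of the threshold, 78 ended a call, 6 made one and 6 reversed. No paired analysis was possible because the labels number the animals of the groups separately. TUBB3, with 1 to 22 counts per library, did not enter the edgeR fit.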
